A study of Homo sapiens with 15 samples.

Results

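The response to the CHK1 inhibitor prexasertib was compared between 2 human leukemia cell lines, U937 and ML1, in 12 of the 15 RNA-seq samples of the study. The 12 samples are all those that received prexasertib alone or diluent. The other 3, U937 samples that received prexasertib together with a second compound given by code name, were not used here. For every gene, the log2 fold change with prexasertib in U937 was set against the log2 fold change with prexasertib in ML1, and the difference between the responses (U937 minus ML1) was tested. Log2 values are given ± an approximate standard error derived from the test statistic, and CPM means ± SD. A difference above 0 means that the gene was raised more, or lowered less, in U937, and a difference below 0 means the reverse.

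The 4 groups held 3 samples each: U937 with 10 nM prexasertib, U937 with diluent, ML1 with 10 nM prexasertib and ML1 with diluent. Treatment lasted 24 h, and all 12 cultures, diluent included, also held 5 µM Q-VD-OPh, an inhibitor of caspases. The study set out to look for mRNA changes in possible transcription factors of the gene of TNFα. U937 is a line of myeloid origin with monocytic features that is known to lack functional p53. ML1 is a myeloid leukemia line that is known to keep wild-type p53. A difference between them is a difference between 2 single lines, and the part of any 1 feature of the lines, p53 included, cannot be told apart from the rest.

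CHK1 is a kinase of the replication checkpoint. It restrains the CDC25 phosphatases and thereby the cyclin-dependent kinases, limits the firing of replication origins and keeps cells with damaged or incompletely copied DNA from entering mitosis. Inhibiting it in dividing cells is known to cause replication stress and DNA breaks. Cells can answer DNA damage through p53, which induces CDKN1A (the CDK inhibitor p21) and lowers the genes of the cell cycle, through NF-kB and AP-1, and through interferon signalling.

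Total counts ran from 49011222 to 87301014 per sample, and 16906 of 26485 genes had enough counts to be tested. Levels are given as CPM, each gene's share of the scaled library total times 1e6. Within the 4 groups, log2 CPM of replicates had correlations from 0.9821 to 0.9938. U937 prexasertib 2, the sample numbered replicate 2, stood apart from its group. Its responses had a slope of 1.21 on the mean of its group mates, against 0.814 and 0.815 for the other two U937 prexasertib samples, and values without it are given where they change a call or move a value by over 1.5 times. Of 16 markers of non-myeloid cells, 5 passed the filter. The summed level of the 16 was 16.5 to 22.2 CPM in U937 with prexasertib and 16.1 to 24.3 CPM in U937 with diluent, and 6.89 to 9.55 and 11.4 to 11.6 CPM in ML1 with prexasertib and diluent. CD3D, CD3E, PF4 and EPCAM had 0 counts in all 12 samples. Of the 16, 5 had a mean of at least 1 CPM in U937 with prexasertib, and 3 had one in each other group. The number at 0 in every sample of a group was 5 in U937 with prexasertib and 10 in U937 with diluent. In ML1 it was 7 with prexasertib and 10 with diluent. Samples are named below by line, treatment and replicate number. Whether replicates were separate cultures is not given in the labels, so the p-values rest on the spread of these samples, which may be technical. In such bulk samples, fewer cells of a kind and less RNA per cell cannot be told apart. CPM is not scaled to gene length, so levels are compared within a gene only.

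The lines shared a part of their response and differed in a large part of it. Of 16906 genes tested, 4092 (24.2%) had a called difference, with an adjusted p under 0.05 in edgeR's quasi-likelihood test. The difference was above 0 for 2069 genes (12.2%) and below 0 for 2023 genes (12%). These are the shares to set beside the counts of every gene list below. Within U937, 3015 genes rose (17.8%) and 1995 fell (11.8%) with prexasertib, and within ML1 4269 rose (25.3%) and 3999 fell (23.7%). In either direction, 29.6% of the genes tested were called in U937 and 48.9% in ML1. Few of the falls in U937 were large: 58 genes fell at least 2-fold there, against 1367 in ML1, while 1820 rose at least 2-fold in U937 and 2618 in ML1. The 2 responses correlated across genes at Pearson's r of 0.466, which is a description over genes that are not independent. The 1640 genes that rose in both lines were 54.4% of those that rose in U937 and 38.4% of those that rose in ML1. The 1192 genes that fell in both were 59.7% of those that fell in U937 and 29.8% of those in ML1.

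**Figure D1:**
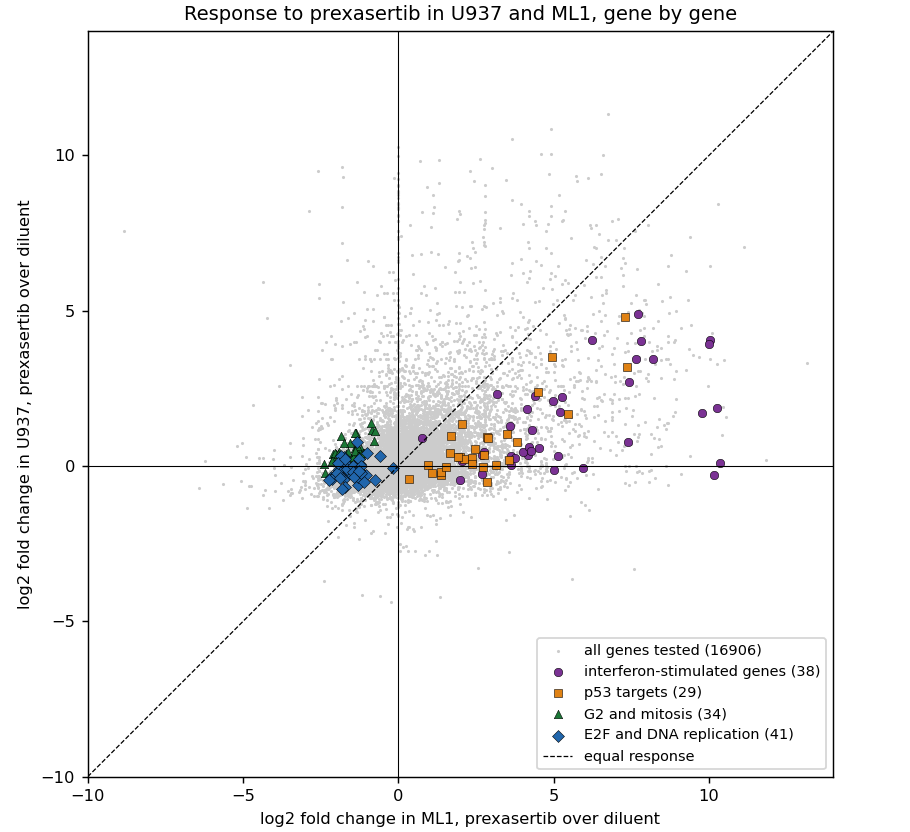
Each point is 1 gene, with its log2 fold change (prexasertib over diluent) in U937 on the vertical axis and in ML1 on the horizontal axis; grey points are all 16906 genes tested, coloured symbols are members of 4 gene lists, and the dashed line marks equal responses. Most interferon-stimulated genes and p53 targets lie to the right of the dashed line, and G2 and mitosis genes lie left of 0 for ML1 and mostly above 0 for U937.

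Most called differences came from genes that moved in ML1 and were not called in U937. Of the 2069 differences above 0, 1141 (55.1%) were genes that fell in ML1 with no call in U937. A further 282 fell in both lines, 377 rose in U937 with no call in ML1, and 43 rose in both. Of the 2023 differences below 0, 1304 (64.5%) were genes that rose in ML1 with no call in U937, 373 (18.4%) rose in both lines and 149 fell in U937 with no call in ML1. The absence of a call in U937 does not show that a gene stayed level there. The genes nearest the threshold were NAE1 just inside, with a difference of 0.59 (adjusted p = 0.04992), and CXCR3 just outside, with -1.76 (adjusted p = 0.05001).

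**Figure D2:**
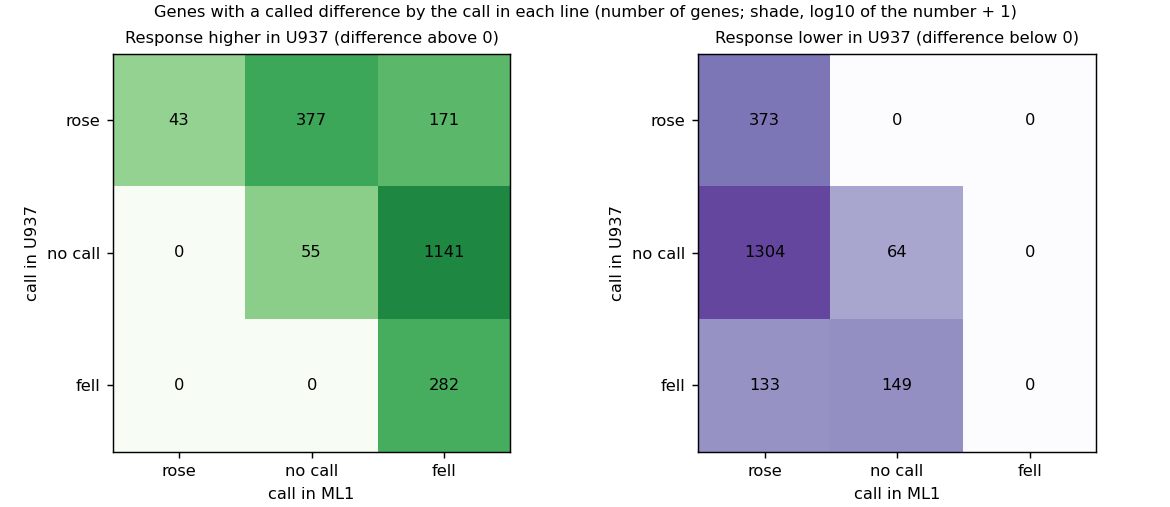
Number of genes with a called difference, by the call in U937 (rows) and in ML1 (columns), for differences above 0 (left panel) and below 0 (right panel); darker shades mark larger numbers on a log10 scale. The largest cells are the 1141 genes that fell in ML1 and the 1304 that rose in ML1, both with no call in U937, and the opposite responses are the cells with 171 and 133 genes.

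Opposite responses, in which the difference and both lines were called with opposite signs, were found for 304 genes (1.8% of those tested). In 171 genes (1.01%) the level rose in U937 and fell in ML1, and in 133 genes (0.787%) it fell in U937 and rose in ML1. All 3 prexasertib samples stood clear of all 3 diluent samples in both lines for 156 of the 171 and 119 of the 133, against 369 (2.18%) and 397 (2.35%) of all genes tested with such a pattern. These counts depended on U937 samples. The 171 became 102 without U937 prexasertib 2 and 96 without U937 diluent 3. The 133 became 26 without U937 prexasertib 2, 202 without U937 prexasertib 3, 78 and 44 without U937 diluent 2 or 3, and 85 and 84 without ML1 diluent 2 or 3. The split of 171 to 133 turned round with some settings. It was 190 to 95 with upper-quartile factors, 157 to 174 with DESeq2 size factors, 184 to 235 in DESeq2, 151 to 161 with thinned counts, 264 to 289 with the replicate block within line and 144 to 144 with no low-count filter. The number that rose in U937 was 1969 without U937 prexasertib 2, and the number that fell there was 483 without that sample, 1245 without U937 diluent 2 and 981 without U937 diluent 3.

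TNF (chromosome 6, 31575567 to 31578336, plus strand, GRCh38), which encodes TNFα, rose in both lines and rose more in ML1. TNF had 14.6, 24.4 and 10.1 CPM in U937 with prexasertib, against 2.70, 3.08 and 2.24 CPM in U937 with diluent. TNF in ML1 had 163, 259 and 165 CPM with prexasertib, against 5.70, 3.78 and 2.17 CPM with diluent. In each line all 3 prexasertib samples were above the diluent samples, and the lowest ML1 prexasertib sample was far above the highest one of U937. TNF had a log2 fold change of 2.61 ± 0.36 in U937 (adjusted p = 2e-04) and 5.65 ± 0.39 in ML1 (adjusted p = 4.7e-08), and the responses differed by -3.04 ± 0.49 (adjusted p = 4e-04). With diluent the 2 lines were not told apart for TNF (U937 minus ML1, -0.53 ± 0.36, adjusted p = 0.21), and with prexasertib the same difference was -3.58 ± 0.35 (adjusted p = 5.9e-07). TNFRSF1A, the gene of its main receptor, stood at 126 ± 27.5 and 157 ± 10.9 CPM in U937 with prexasertib and diluent, and at 128 ± 33.5 and 128 ± 22.1 CPM in ML1 with prexasertib and diluent (SD, n = 3 each). No difference was called for TNFRSF1A (-0.32 ± 0.27, adjusted p = 0.44).

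The promoters of TNF and of TNFAIP3, a feedback inhibitor of NF-kB, are shown because TNF is the gene the study was about and TNFAIP3 is an NF-kB target, chosen after its values were seen. The 250 bases before the RefSeq start (GRCh38.p14) are given 5′ to 3′, with a match to the NF-kB letters (GGGA, any base, TTTCC) on either strand in capitals:
TNF, chr6:31575315-31575564, plus strand: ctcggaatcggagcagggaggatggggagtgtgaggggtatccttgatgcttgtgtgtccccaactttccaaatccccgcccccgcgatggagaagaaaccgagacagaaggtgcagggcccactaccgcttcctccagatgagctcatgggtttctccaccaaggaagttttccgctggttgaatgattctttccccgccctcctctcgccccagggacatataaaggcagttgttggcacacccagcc
TNFAIP3, chr6:137867009-137867258, plus strand: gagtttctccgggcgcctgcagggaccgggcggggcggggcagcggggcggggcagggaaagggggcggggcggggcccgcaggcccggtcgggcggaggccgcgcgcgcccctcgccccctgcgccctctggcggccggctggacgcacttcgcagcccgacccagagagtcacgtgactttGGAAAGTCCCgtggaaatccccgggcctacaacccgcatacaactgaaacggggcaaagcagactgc
TNFAIP3 held 1 match, on the minus strand, at -67 to -58 from the start. TNF held no match in this window to those letters, nor to the AP-1 letters TGANTCA or the CRE letters TGACGTCA, which says only that these letters are not in the window. The same holds for SLC12A7 and LINC00426, described below, whose promoters were searched alike and are not printed. Of the NF-kB subunits and targets with a promoter in the table, 9 of 25 (36.0%) held the NF-kB letters, against 0.576% of the 12668 tested genes with a promoter. The list was made of known NF-kB genes, so this share describes the list and not the response.

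Most NF-kB subunits and targets rose in both lines. Of 28 tested members, 23 rose in U937 and 27 in ML1, and 18 had a difference below 0, against 12% of all genes. The median log2 response of the list was 2.31 in U937 and 4.44 in ML1, beside medians near 0 over all genes tested. CCL3 and CCL4 did not pass the low-count filter. TNFAIP3 had 219, 313 and 189.9 CPM in U937 with prexasertib, against 13, 26.5 and 17.7 CPM in U937 with diluent. TNFAIP3 in ML1 had 892, 860.3 and 729 CPM with prexasertib, against 4.87, 5.68 and 5.17 CPM with diluent. TNFAIP3 did not overlap between treatments in either line. TNFAIP3 had a log2 fold change of 3.66 ± 0.24 in U937 (adjusted p = 2.4e-07) and 7.30 ± 0.28 in ML1 (adjusted p = 4.7e-11), and the responses differed by -3.64 ± 0.32 (adjusted p = 8.1e-07). ICAM1, a leukocyte adhesion molecule, had 175, 246 and 162 CPM in U937 with prexasertib, against 56.3, 53.1 and 44.3 CPM in U937 with diluent. ICAM1 in ML1 had 229.8, 179 and 136 CPM with prexasertib, against 2.50, 2.07 and 1.96 CPM with diluent. ICAM1 was about as high in both lines with prexasertib but far lower in ML1 with diluent. ICAM1 had a log2 fold change of 1.92 ± 0.19 in U937 (adjusted p = 6.4e-06) and 6.38 ± 0.24 in ML1 (adjusted p = 3.1e-11), and the responses differed by -4.46 ± 0.28 (adjusted p = 3.3e-08). 23.6% of its exon bases are shared with an antisense gene, and the library kit does not mark strand, so reads of the pair cannot be told apart. NR4A1, CEBPB, SBF2 and HSPE1, named below, share 10.3% to 23.9% with antisense genes, and BUB1B shares 10.2% with another annotated gene. The inhibitor of apoptosis BIRC3 differed by -4.48 ± 0.41 (adjusted p = 1.3e-06) and the subunit gene NFKB2 by -2.44 ± 0.24 (adjusted p = 2.8e-06). RELA and NFKB1, the classic subunits, had no called difference (-0.34 and -0.56).

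The AP-1 and ATF transcription factors, proteins with a leucine zipper that pair up on DNA, were raised in part. Of 21 members, 13 rose in U937 and 13 in ML1, 8 had a difference below 0 (JUN, JUNB, JUND, FOSB, FOSL1, ATF3, BATF3 and MAFK), and 2 (ATF6 and JDP2) had one above 0. The 2 became 0 without U937 diluent 3 or ML1 diluent 2 and 1 with the DESeq2 size factors, with the stricter filter and without U937 diluent 2, ML1 prexasertib 1, ML1 prexasertib 2, ML1 prexasertib 3, ML1 diluent 1 or ML1 diluent 3. JUNB had 183, 216 and 137 CPM in U937 with prexasertib, against 72.7, 64.1 and 48.2 CPM in U937 with diluent. JUNB in ML1 had 551, 929.7 and 702 CPM with prexasertib, against 37.5, 48.8 and 37.5 CPM with diluent. JUNB lay higher in ML1 than in U937 with prexasertib and somewhat lower with diluent. JUNB had a log2 fold change of 1.53 ± 0.21 in U937 (adjusted p = 0.00012) and 4.14 ± 0.23 in ML1 (adjusted p = 1.4e-09), and the responses differed by -2.61 ± 0.29 (adjusted p = 9.5e-06). 14.2% of JUNB exon bases are shared with an antisense gene. FOSB had 49.9, 56.3 and 30.2 CPM in U937 with prexasertib, against 7.87, 6.14 and 4.67 CPM in U937 with diluent. FOSB in ML1 had 48.2, 104 and 59.2 CPM with prexasertib, against 0.637, 0.608 and 0.561 CPM with diluent. With diluent, every U937 sample was above every ML1 sample for FOSB. FOSB had a log2 fold change of 2.86 ± 0.28 in U937 (adjusted p = 6.8e-06) and 6.86 ± 0.36 in ML1 (adjusted p = 6.3e-10), and the responses differed by -4.0 ± 0.42 (adjusted p = 5.2e-06). JUND differed by -1.46 ± 0.21 (adjusted p = 1e-04) and FOSL1 by -2.53 ± 0.26 (adjusted p = 3.3e-06). The differences of JUN and ATF3 were -2.38 and -2.90, while FOS rose in both lines with no called difference (-0.63).

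Immediate early genes, which answer growth and stress signals within minutes to hours, mostly rose. Of 23 tested members, 19 rose in U937 and 22 in ML1, 12 had a difference below 0 and none had one above 0. CSRNP1, a nuclear transcription factor, had 58.0, 63.2 and 39.5 CPM in U937 with prexasertib, against 13.4, 12.9 and 11.7 CPM in U937 with diluent. CSRNP1 in ML1 had 224, 209.9 and 218 CPM with prexasertib, against 6.11, 6.78 and 5.90 CPM with diluent. CSRNP1 did not overlap between treatments in either line. CSRNP1 had a log2 fold change of 2.08 ± 0.15 in U937 (adjusted p = 4.7e-07) and 5.11 ± 0.17 in ML1 (adjusted p = 1.4e-11), and the responses differed by -3.03 ± 0.21 (adjusted p = 9e-08). BTG2, an antiproliferative gene and p53 target, differed by -2.09 ± 0.24 (adjusted p = 1.1e-05), the orphan nuclear receptor gene NR4A1 by -2.21 ± 0.29 (adjusted p = 4.7e-05) and IER5 by -1.77 ± 0.24 (adjusted p = 6.3e-05). The list of MAPK feedback genes, which includes phosphatases and Sprouty proteins that dampen MAP kinases, had 5 of 15 differences below 0 (12% over all genes). Among them were the ERK phosphatase genes DUSP5 (-3.77 ± 0.36, adjusted p = 2e-06) and DUSP2 (-2.82 ± 0.32, adjusted p = 9.5e-06) and the Sprouty gene SPRY4 (-4.52 ± 0.70, adjusted p = 2e-04). GADD45A (-3.80 ± 0.48, adjusted p = 5.5e-05), which is of neither kind and is also on the list of p53 targets, was another. The GADD45A difference was -4.50 without U937 prexasertib 2. The SPRY4 difference was -7.91 without ML1 diluent 2. SPRY4 had 4 counts in all in ML1 with diluent, so the size of its difference is loose. SPRY4 in ML1 had only 0.810, 1.33 and 0.454 CPM with prexasertib. In U937 it had 24.2, 21.6 and 19.0 CPM with prexasertib and 12.6, 13.25 and 11.0 CPM with diluent. DUSP6, the ERK phosphatase, was called in U937 and not in ML1, and its difference was not called (0.63).

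Cytokines and growth factors had 12 of 22 tested members with a difference below 0, against 12% of all genes. IL6 and CSF2 did not pass the filter. CCL5, a chemokine, had 98.7, 101 and 108 CPM in U937 with prexasertib, against 97.2, 74.7 and 79.0 CPM in U937 with diluent. CCL5 in ML1 had 521, 344 and 604 CPM with prexasertib, against 23.0, 27.4 and 28.2 CPM with diluent. CCL5 in ML1 did not overlap between treatments, and in U937 the prexasertib samples lay only slightly above diluent. CCL5 had a log2 fold change of 0.29 ± 0.17 in U937 (adjusted p = 0.2) and 4.22 ± 0.19 in ML1 (adjusted p = 2.2e-10), and the responses differed by -3.93 ± 0.25 (adjusted p = 3.3e-08). LIF, a cytokine of the interleukin-6 family, had 0.321, 0.558 and 0.313 CPM in U937 with prexasertib, against 0.156, 0.142 and 0.233 CPM in U937 with diluent. LIF in ML1 had 235, 115 and 235 CPM with prexasertib, against 0.419, 0.585 and 0.456 CPM with diluent. LIF stayed below 1 CPM in all U937 samples. The LIF difference was -7.43 ± 0.70 (adjusted p = 1.6e-06). The difference was -4.09 ± 0.33 (adjusted p = 2.7e-07) for the growth factor gene PDGFA, -3.44 ± 0.20 (adjusted p = 1.6e-08) for IL32 and -1.68 ± 0.14 (adjusted p = 6.6e-07) for VEGFA. AREG, the EGF receptor ligand amphiregulin, was the 1 member with a difference above 0. AREG had 0 counts in all 3 U937 diluent samples, so no fitted size is given, and its call is one that was lost with the stricter filter, with all 15 libraries, with thinned counts and without U937 diluent 1, U937 diluent 2, U937 diluent 3, ML1 prexasertib 1, ML1 prexasertib 3, ML1 diluent 2 or ML1 diluent 3.

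**Figure D3:**
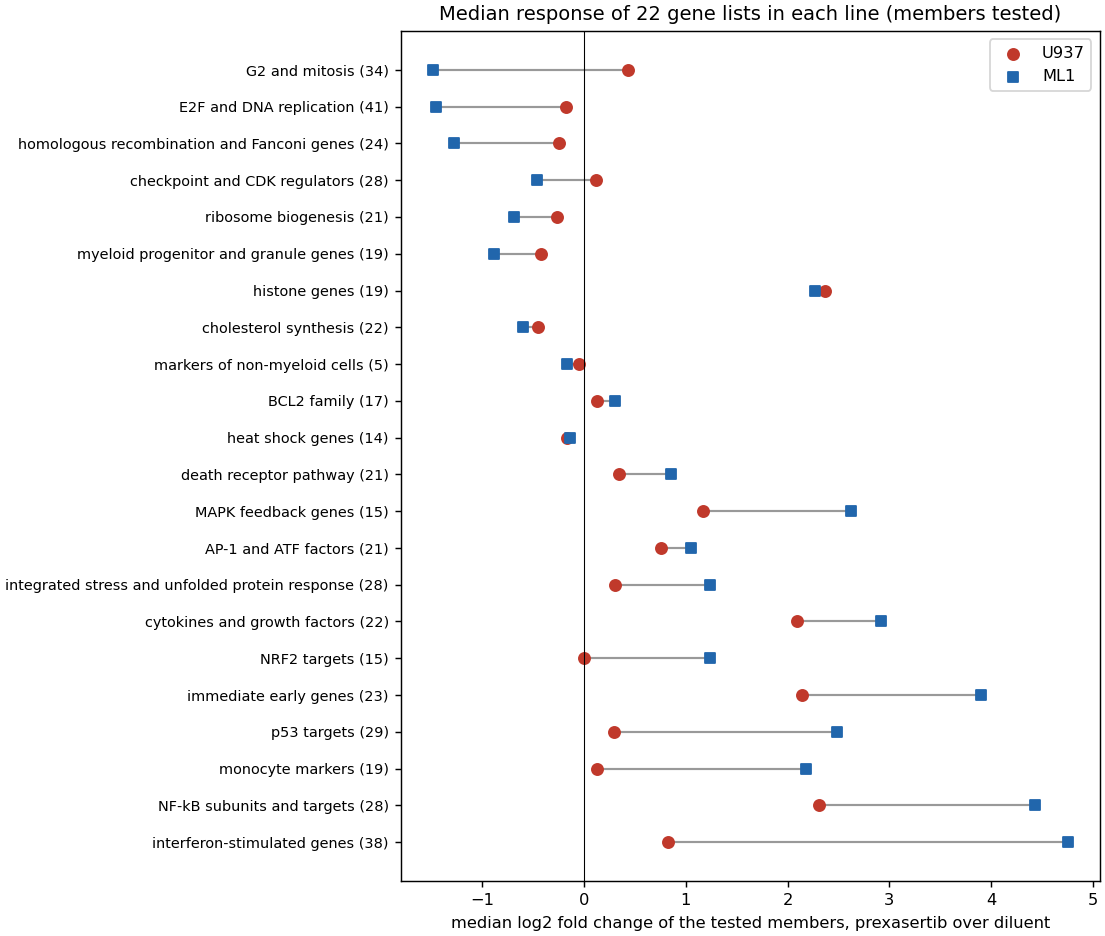
Median log2 fold change (prexasertib over diluent) of the tested members of each of the 22 gene lists, as circles for U937 and squares for ML1, with the number of tested members in brackets; lists are ordered by the median of the difference. At the top the median of G2 and mitosis genes is 0.43 in U937 and -1.48 in ML1, and at the bottom that of interferon-stimulated genes is 0.83 in U937 and 4.76 in ML1.

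p53 targets rose broadly in ML1 and in part in U937. Of 29 tested members, 11 rose in U937 and 28 in ML1, and 27 had a difference below 0, against 12% of all genes. The median log2 response of the list was 0.29 in U937 and 2.48 in ML1. CDKN1A (chromosome 6, 36676460 to 36687339, plus strand) had 70.9, 115 and 63.3 CPM in U937 with prexasertib, against 7.34, 8.01 and 6.60 CPM in U937 with diluent. CDKN1A in ML1 had 1873, 1820 and 1916 CPM with prexasertib, against 40.4, 77.0 and 64.1 CPM with diluent. CDKN1A rose in both lines with no overlap, and every ML1 diluent sample was above every U937 diluent sample. CDKN1A had a log2 fold change of 3.5 ± 0.25 in U937 (adjusted p = 4.1e-07) and 4.95 ± 0.26 in ML1 (adjusted p = 6.3e-10), and the responses differed by -1.45 ± 0.32 (adjusted p = 0.0033). MDM2, the ubiquitin ligase that turns p53 over and is itself a p53 target, had 61.0, 61.9 and 55.6 CPM in U937 with prexasertib, against 45.4, 55.3 and 54.8 CPM in U937 with diluent. MDM2 in ML1 had 2341, 832 and 1501 CPM with prexasertib, against 131, 131 and 129.8 CPM with diluent. MDM2 in U937 lay within a narrow range under either treatment, and in ML1 the prexasertib samples were far above diluent. MDM2 had a log2 fold change of 0.20 ± 0.24 in U937 (adjusted p = 0.56) and 3.58 ± 0.27 in ML1 (adjusted p = 2.8e-08), and the responses differed by -3.38 ± 0.35 (adjusted p = 4.2e-06). BBC3, the gene of the pro-death BH3 protein PUMA, had 17.7, 19.2 and 17.5 CPM in U937 with prexasertib, against 13.9, 7.55 and 9.88 CPM in U937 with diluent. BBC3 in ML1 had 188, 169 and 193 CPM with prexasertib, against 9.18, 14.7 and 15.4 CPM with diluent. BBC3 was above diluent in all prexasertib samples of both lines. BBC3 had a log2 fold change of 0.79 ± 0.20 in U937 (adjusted p = 0.0095) and 3.81 ± 0.22 in ML1 (adjusted p = 1.9e-09), and the responses differed by -3.02 ± 0.29 (adjusted p = 1.9e-06). The mitochondrial reductase gene FDXR differed by -2.32 ± 0.22 (adjusted p = 1.6e-06), RPS27L by -1.66 ± 0.17 (adjusted p = 3.2e-06) and BAX, a pore-forming BCL2 family member, by -1.55 ± 0.17 (adjusted p = 6.4e-06). The p53 targets that rose in U937 too were CDKN1A, BBC3, TNFRSF10B, GDF15, SESN2, RRM2B, PLK3, BTG2, GADD45A, PPM1D and PLK2. Of these, SESN2 and PPM1D had no called difference (-0.71 and -0.71).

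TP73, a member of the p53 family, moved in opposite directions from a low level in U937. TP73 had 0.714, 0.407 and 0.491 CPM in U937 with prexasertib, against 0.354, 0.0356 and 0.296 CPM in U937 with diluent. TP73 in ML1 had 5.67, 7.10 and 6.43 CPM with prexasertib, against 39.1, 35.5 and 35.8 CPM with diluent. All U937 prexasertib samples lay above U937 diluent, and all ML1 prexasertib samples lay below ML1 diluent. TP73 shares 9.36% of its exon bases with an antisense gene. TP73 had a log2 fold change of 1.2 ± 0.41 in U937 (adjusted p = 0.038) and -2.52 ± 0.28 in ML1 (adjusted p = 2.5e-06), and the responses differed by 3.73 ± 0.49 (adjusted p = 4.3e-05). The TP73 U937 value was no longer called without U937 prexasertib 1, U937 diluent 2, U937 diluent 3, ML1 diluent 2 or ML1 diluent 3 (0.71 to 1.36).

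Differences of BCL2 family genes pointed either way. Of 17 members, 5 had a difference below 0 and 3 above 0, against 12% and 12.2% of all genes. With 17 members, the count above 0 does not set the list apart from all genes. The median difference of the list was 0.02, and -0.47 with the stricter filter. BCL2, the founding survival member, had 51.4, 34.8 and 55.9 CPM in U937 with prexasertib, against 67.4, 81.6 and 78.5 CPM in U937 with diluent. BCL2 in ML1 had 9.79, 10.3 and 13.3 CPM with prexasertib, against 107, 88.2 and 97.6 CPM with diluent. BCL2 fell in both lines without overlap, and the lowest levels were those of ML1 with prexasertib. BCL2 had a log2 fold change of -0.68 ± 0.17 in U937 (adjusted p = 0.0076) and -3.13 ± 0.18 in ML1 (adjusted p = 1.9e-09), and the responses differed by 2.46 ± 0.24 (adjusted p = 2.3e-06). BCL2A1, a survival member and NF-kB target, had 18.1, 20.1 and 25.1 CPM in U937 with prexasertib, against 15.6, 16.0 and 17.1 CPM in U937 with diluent. BCL2A1 in ML1 had 13.2, 18.1 and 11.2 CPM with prexasertib, against 0.336, 0.234 and 0.420 CPM with diluent. BCL2A1 in ML1 with prexasertib came near the U937 levels, which it did not do with diluent. BCL2A1 had a log2 fold change of 0.38 ± 0.20 in U937 (adjusted p = 0.15) and 5.45 ± 0.26 in ML1 (adjusted p = 3.5e-10), and the responses differed by -5.07 ± 0.32 (adjusted p = 3.5e-08). MCL1 and PMAIP1 (NOXA) also had differences below 0 (-0.80 and -2.74), and BIK above 0 (1.71), as had BCL2L10 at under 1 CPM. BCL2L1, BID and BAD had no called difference (0.06, 0.02 and 0.30).

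Of 21 tested members of the death receptor pathway, 7 had a difference below 0 (TNFRSF10A, TNFRSF10B, TNFRSF10D, FAS, TNFSF10, RIPK3 and MLKL) and 1, the adaptor gene TRAF2, had one above 0. That 1 became 0 in DESeq2, with the DESeq2 size factors, with no low-count filter, with thinned counts and without U937 prexasertib 3, U937 diluent 1, U937 diluent 3, ML1 prexasertib 1, ML1 prexasertib 3, ML1 diluent 1 or ML1 diluent 2 and 2 with the upper-quartile factors. TNFSF10, the ligand TRAIL, had 2.46, 3.20 and 2.19 CPM in U937 with prexasertib, against 2.79, 2.05 and 1.61 CPM in U937 with diluent. TNFSF10 in ML1 had 69.7, 69.0 and 68.6 CPM with prexasertib, against 5.94, 5.61 and 5.33 CPM with diluent. TNFSF10 in U937 overlapped between treatments, and in ML1 it did not. TNFSF10 had a log2 fold change of 0.27 ± 0.19 in U937 (adjusted p = 0.29) and 3.62 ± 0.19 in ML1 (adjusted p = 6.9e-10), and the responses differed by -3.35 ± 0.26 (adjusted p = 2.5e-07). The TRAIL receptor gene TNFRSF10B differed by -1.98 ± 0.21 (adjusted p = 5.5e-06), FAS by -2.13 ± 0.28 (adjusted p = 4.6e-05) and MLKL, the executor of necroptosis, by -2.17 ± 0.21 (adjusted p = 2.4e-06). RIPK3, the kinase that activates MLKL, had a smaller difference (-0.65). CASP8, CFLAR and RIPK1 rose in both lines with no called difference (0.23, -0.19 and -0.01).

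**Figure D4:**
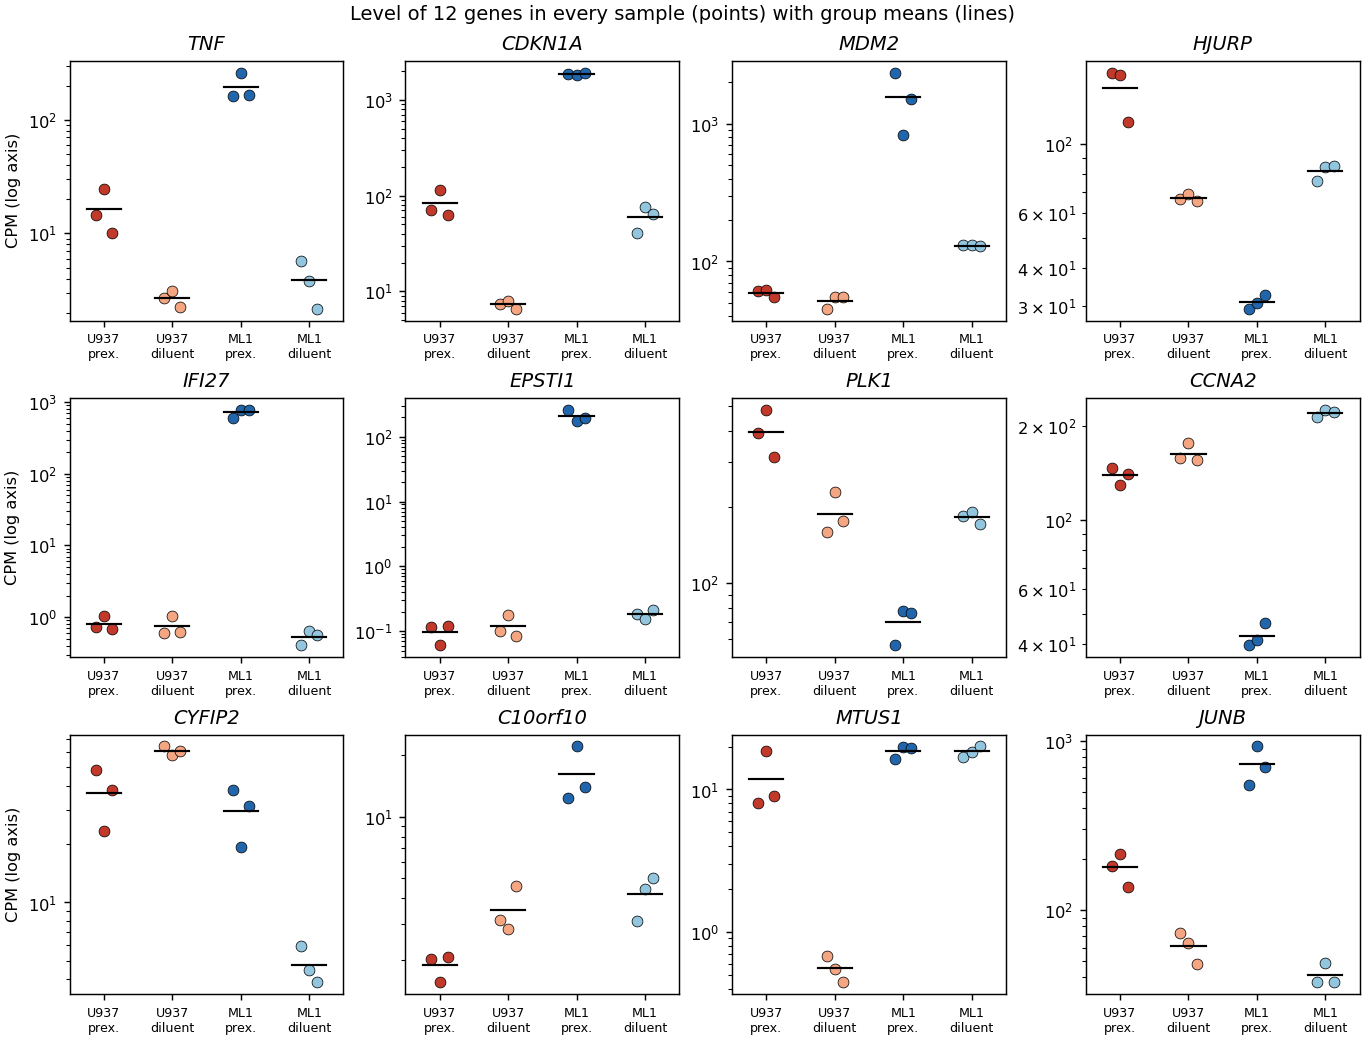
Level of 12 genes (CPM, log axis) in every sample of U937 with prexasertib (prex.), U937 with diluent, ML1 with prexasertib and ML1 with diluent; points are samples and lines are group means over 3 samples. TNF, CDKN1A and JUNB rise in both lines, MDM2, IFI27 and EPSTI1 are raised in ML1, and HJURP, PLK1, C10orf10 and CYFIP2 move in opposite directions.

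Interferon-stimulated genes rose in ML1, and the 2 largest differences below 0 among the named genes were theirs. All 38 members of the list were tested, 19 rose in U937, 38 rose in ML1 and 34 had a difference below 0, against 12% of all genes. The median log2 response of the list was 0.83 in U937 and 4.76 in ML1. Without U937 prexasertib 2 the U937 median was 0.30. BST2, a surface protein that tethers viruses, was the 1 member called as fallen in U937. That U937 call was lost without U937 prexasertib 1, U937 prexasertib 2 or U937 diluent 2. EPSTI1 (chromosome 13, 42886388 to 42992271, minus strand) had 0.117, 0.0604 and 0.119 CPM in U937 with prexasertib, against 0.0991, 0.178 and 0.0846 CPM in U937 with diluent. EPSTI1 in ML1 had 262, 172 and 192 CPM with prexasertib, against 0.184, 0.152 and 0.210 CPM with diluent. EPSTI1 was near the lower end of detection in all samples except the 3 of ML1 with prexasertib. EPSTI1 had a log2 fold change of -0.28 ± 0.45 in U937 (adjusted p = 0.67) and 10.17 ± 0.25 in ML1 (adjusted p = 4.2e-13), and the responses differed by -10.45 ± 0.68 (adjusted p = 4e-08). IFI27, a mitochondrial interferon-induced protein gene, had 0.729, 1.03 and 0.685 CPM in U937 with prexasertib, against 0.594, 1.05 and 0.613 CPM in U937 with diluent. IFI27 in ML1 had 599, 786 and 778 CPM with prexasertib, against 0.403, 0.643 and 0.561 CPM with diluent. IFI27 overlapped between treatments in U937. IFI27 had a log2 fold change of 0.11 ± 0.25 in U937 (adjusted p = 0.76) and 10.37 ± 0.26 in ML1 (adjusted p = 4.2e-13), and the responses differed by -10.25 ± 0.36 (adjusted p = 5.3e-11). USP18, which removes ISG15 from proteins and dampens interferon signalling, had 15.9, 20.5 and 12.5 CPM in U937 with prexasertib, against 16.8, 11.3 and 10.9 CPM in U937 with diluent. USP18 in ML1 had 369, 279 and 354 CPM with prexasertib, against 10.2, 9.64 and 8.48 CPM with diluent. USP18 had like diluent levels in the 2 lines. The USP18 difference was -4.82 ± 0.28 (adjusted p = 1.8e-08). MX2, an antiviral GTPase, had 116, 127 and 125 CPM in U937 with prexasertib, against 146, 146 and 149.9 CPM in U937 with diluent. MX2 in ML1 had 780.3, 558 and 572 CPM with prexasertib, against 105, 91.5 and 95.7 CPM with diluent. MX2 was present at a moderate level in U937, and the U937 prexasertib samples all lay slightly below diluent. MX2 had a log2 fold change of -0.26 ± 0.13 in U937 (adjusted p = 0.13) and 2.71 ± 0.14 in ML1 (adjusted p = 4.4e-10), and the responses differed by -2.97 ± 0.18 (adjusted p = 3e-08). The MX2 U937 value was called without ML1 prexasertib 1 (-0.26). CMPK2 differed by -5.16 ± 0.32 (adjusted p = 3.2e-08).

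Members of the list that did rise in U937 included the 2′-5′ oligoadenylate synthetase gene OAS2. OAS2 had 7.49, 33.5 and 7.01 CPM in U937 with prexasertib, against 6.01, 3.74 and 4.76 CPM in U937 with diluent. OAS2 in ML1 had 1368, 953 and 1138 CPM with prexasertib, against 1.66, 1.47 and 0.771 CPM with diluent. U937 prexasertib 2 held the highest of the U937 values, and the other U937 prexasertib samples lay only slightly above diluent. The rise of OAS2 in U937 thus rested largely on that sample (log2 fold change 1.72 ± 0.55, adjusted p = 0.039). The OAS2 difference was -8.06 ± 0.86 (adjusted p = 6.2e-05). The OAS2 difference was -9.17 without U937 prexasertib 2. IFIT2, IFIT3, IFIT5 and IRF1 were the 4 members with no called difference (-2.81, -2.20, -0.87 and 0.14), and all 4 rose in both lines. ISG15 and CXCL10 rose in both and rose more in ML1 (-4.70 and -6.07). IFI44L and RSAD2 rose in ML1 with no call in U937 (differences of -8.39 and -6.01).

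The promoters of EPSTI1 and IFI27, the pair of genes with the largest differences below 0 among those named, are shown with IFI27 chosen after its values were seen, with matches to the core of the interferon-stimulated response element (GAAA, any 2 bases, GAAA, either strand) in capitals. That element is bound by the interferon-activated factor ISGF3 and by IRF proteins. The 250 bases before the RefSeq start (GRCh38.p14) are:
EPSTI1, chr13:42992242-42992491, minus strand: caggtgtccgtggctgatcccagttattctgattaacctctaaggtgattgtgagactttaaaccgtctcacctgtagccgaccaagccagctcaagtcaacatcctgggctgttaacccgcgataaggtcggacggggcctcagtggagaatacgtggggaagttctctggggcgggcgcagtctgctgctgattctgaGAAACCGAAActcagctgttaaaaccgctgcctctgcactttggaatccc
IFI27, chr14:94110486-94110735, plus strand: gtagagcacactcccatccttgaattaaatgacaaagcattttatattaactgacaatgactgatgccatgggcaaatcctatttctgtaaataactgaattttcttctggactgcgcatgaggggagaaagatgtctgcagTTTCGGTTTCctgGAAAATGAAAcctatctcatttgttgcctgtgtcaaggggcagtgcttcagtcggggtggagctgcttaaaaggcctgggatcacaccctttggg
EPSTI1 held 1 match at -50 to -41, and IFI27 held 2, at -108 to -99 on the minus strand and at -95 to -86 on the plus strand. On the list, 16 of 30 promoters (53.3%) held the letters, against 2.57% of the 12668 promoters of tested genes. The letters were chosen after values were seen. The list was made of known interferon-stimulated genes, so this share describes the list and not the response. A match describes the letters and is not evidence of binding in these cells.

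Other genes among the 10 largest differences below 0 included known interferon targets and genes of other kinds. IFITM1, an interferon-induced membrane protein gene, had 8.69, 9.85 and 9.02 CPM in U937 with prexasertib, against 11.1, 10.1 and 9.05 CPM in U937 with diluent. IFITM1 in ML1 had 89.8, 81.9 and 90.7 CPM with prexasertib, against 0.268, 0.445 and 0.175 CPM with diluent. IFITM1 was higher in U937 than in ML1 with diluent. IFITM1 had a log2 fold change of -0.14 ± 0.17 in U937 (adjusted p = 0.55) and 8.13 ± 0.24 in ML1 (adjusted p = 2.2e-12), and the responses differed by -8.27 ± 0.28 (adjusted p = 5.3e-11). It shares 32.5% of its exon bases with its near copy IFITM2, so its counts are uncertain. GBP1, a guanylate-binding protein gene, differed by -9.30 ± 1.17 (adjusted p = 4.2e-05) and HELZ2, a helicase gene, by -7.15 ± 0.60 (adjusted p = 2e-06). The HELZ2 difference was -7.90 without U937 prexasertib 2. CYP4F3, which inactivates leukotriene B4 in neutrophils, differed by -8.60 ± 0.75 (adjusted p = 8.3e-07), and SLC2A6, a glucose transporter gene, by -7.09 ± 0.39 (adjusted p = 1.1e-08). PAX5, a transcription factor of B cells, had 9.14, 16.2 and 16.5 CPM in U937 with prexasertib, against 12.3, 27.5 and 19.6 CPM in U937 with diluent. PAX5 in ML1 had 24.5, 8.38 and 9.41 CPM with prexasertib, against 0.0168, 0.0468 and 0.158 CPM with diluent. PAX5 in ML1 was near 0 with diluent and came near the U937 levels with prexasertib. PAX5 had a log2 fold change of -0.51 ± 0.40 in U937 (adjusted p = 0.36) and 7.62 ± 0.64 in ML1 (adjusted p = 2.2e-07), and the responses differed by -8.12 ± 0.77 (adjusted p = 3e-06). The PAX5 difference was -7.46 without ML1 prexasertib 1 and -9.11 without ML1 diluent 3. The PAX5 ML1 value was 6.95 without ML1 prexasertib 1 and 8.60 without ML1 diluent 3.

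The genes of G2 and mitosis fell in ML1, and most of them rose in U937. All 34 members had a difference above 0, against 12.2% of all genes, all 34 fell in ML1, and 23 rose in U937. The median log2 response of the list was 0.43 in U937 and -1.48 in ML1. The 23 that rose in U937, all opposite to ML1, became 11 without U937 diluent 3, 14 without U937 prexasertib 1 and 15 without U937 prexasertib 2 or U937 diluent 1. PLK1, the kinase that drives mitotic entry (chromosome 16, 23677656 to 23690367, plus strand), had 390.4, 485 and 315 CPM in U937 with prexasertib, against 159.6, 229 and 176 CPM in U937 with diluent. PLK1 in ML1 had 56.7, 77.5 and 76.0 CPM with prexasertib, against 185, 191 and 170.5 CPM with diluent. PLK1 had like diluent levels in the lines and moved away from them in opposite directions without overlap. PLK1 had a log2 fold change of 1.08 ± 0.17 in U937 (adjusted p = 4e-04) and -1.38 ± 0.17 in ML1 (adjusted p = 7.3e-06), and the responses differed by 2.46 ± 0.24 (adjusted p = 2.6e-06). 12.5% of its exon bases are shared with an antisense gene. HJURP, the chaperone that loads the centromere histone CENP-A and is not on the list, had 169.6, 167 and 118 CPM in U937 with prexasertib, against 66.8, 68.9 and 65.8 CPM in U937 with diluent. HJURP in ML1 had 29.5, 30.8 and 32.5 CPM with prexasertib, against 76.2, 84.1 and 84.9 CPM with diluent. HJURP showed no overlap between treatments in either line. HJURP had a log2 fold change of 1.17 ± 0.13 in U937 (adjusted p = 1.8e-05) and -1.4 ± 0.13 in ML1 (adjusted p = 3.7e-07), and the responses differed by 2.58 ± 0.19 (adjusted p = 1.1e-07). HMMR, a spindle protein gene, had 111, 101 and 78.4 CPM in U937 with prexasertib, against 60.2, 55.2 and 57.9 CPM in U937 with diluent. HMMR in ML1 had 23.9, 26.0 and 27.1 CPM with prexasertib, against 78.9, 90.3 and 86.4 CPM with diluent. HMMR also showed no overlap in either line. HMMR had a log2 fold change of 0.75 ± 0.13 in U937 (adjusted p = 0.00071) and -1.73 ± 0.13 in ML1 (adjusted p = 3.1e-08), and the responses differed by 2.48 ± 0.18 (adjusted p = 1.3e-07).

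Other mitotic genes differed as much with smaller movements in U937. CCNA2, the gene of cyclin A2, had 147, 129 and 141 CPM in U937 with prexasertib, against 158, 176 and 156 CPM in U937 with diluent. CCNA2 in ML1 had 39.6, 41.3 and 46.7 CPM with prexasertib, against 214, 226 and 222 CPM with diluent. CCNA2 in U937 with prexasertib lay slightly below diluent in all samples, and in ML1 it lay far below. CCNA2 had a log2 fold change of -0.23 ± 0.10 in U937 (adjusted p = 0.1) and -2.37 ± 0.11 in ML1 (adjusted p = 2.7e-10), and the responses differed by 2.14 ± 0.15 (adjusted p = 8.8e-08). CDK1, the kinase of mitotic entry, had 148, 132 and 124 CPM in U937 with prexasertib, against 103, 104 and 103 CPM in U937 with diluent. CDK1 in ML1 had 47.1, 42.3 and 51.1 CPM with prexasertib, against 161, 201 and 198 CPM with diluent. CDK1 in U937 was slightly above diluent in all prexasertib samples. CDK1 had a log2 fold change of 0.38 ± 0.12 in U937 (adjusted p = 0.024) and -2.0 ± 0.12 in ML1 (adjusted p = 3.5e-09), and the responses differed by 2.38 ± 0.17 (adjusted p = 9.8e-08). The CDK1 U937 value was no longer called without U937 prexasertib 1, U937 diluent 1, U937 diluent 2 or U937 diluent 3 (0.35 to 0.38). The checkpoint kinase gene BUB1B differed by 2.50 ± 0.18 (adjusted p = 1.2e-07). KIF20A, a mitotic kinesin gene, had the largest difference on the list (2.82), and CDC25C, ESPL1 and PTTG1 had differences of 1.61, 1.56 and 1.51.

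The promoters of PLK1 and HMMR are shown because they rose in U937 and fell in ML1, and were chosen after their values were seen, as were the letters searched in them. Capitals mark the core of the cell cycle genes homology region (TTTGAA) and the CCAAT box (CCAAT), on either strand. Both are known from promoters of late cell cycle genes, where the first is bound by MuvB complexes, such as the repressor DREAM, and the second by NF-Y. The 250 bases before the RefSeq start (GRCh38.p14) are:
PLK1, chr16:23678639-23678888, plus strand: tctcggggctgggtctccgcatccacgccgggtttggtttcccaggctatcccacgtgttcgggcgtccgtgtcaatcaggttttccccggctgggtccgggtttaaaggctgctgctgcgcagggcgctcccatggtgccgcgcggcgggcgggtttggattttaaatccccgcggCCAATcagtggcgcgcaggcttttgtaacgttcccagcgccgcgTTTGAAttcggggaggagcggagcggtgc
HMMR, chr5:163460382-163460631, plus strand: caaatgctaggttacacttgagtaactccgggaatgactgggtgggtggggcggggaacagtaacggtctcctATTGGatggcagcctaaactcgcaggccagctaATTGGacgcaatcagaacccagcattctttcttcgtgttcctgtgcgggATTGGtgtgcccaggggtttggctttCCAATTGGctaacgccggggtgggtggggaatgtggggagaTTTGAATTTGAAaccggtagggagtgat
PLK1 held TTTGAA at -29 to -24 and CCAAT at -73 to -69, both on the plus strand. HMMR held TTTGAA at -28 to -23 and at -22 to -17, and 5 CCAAT matches, 2 of which overlap. On the list, 17 of 28 promoters (60.7%) held TTTGAA and 24 (85.7%) held CCAAT. Over all 12668 promoters the shares were 9.16% and 34.5%, and over the 127 promoters of genes that rose in U937 and fell in ML1 they were 22% and 52.0%. The 171 genes of that last set include 23 members of the list, so its shares are not separate from those of the list.

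E2F targets and DNA replication genes fell in ML1. Of 41 members, 38 had a difference above 0 and 40 fell in ML1, against 12.2% and 23.7% of all genes. In U937 9 fell, and that count became 3 without U937 prexasertib 2, 4 without U937 prexasertib 1, 5 without U937 diluent 2 or U937 diluent 3 and 14 without U937 prexasertib 3. The median log2 response of the list was -0.17 in U937 and -1.45 in ML1. PCNA, the replication clamp and a known p53 target, and LIG1 and RPA2 were the members with no called difference (0.31, 0.57 and 0.12). E2F1 had 56.8, 76.3 and 72.4 CPM in U937 with prexasertib, against 50.8, 61.7 and 50.4 CPM in U937 with diluent. E2F1 in ML1 had 33.3, 36.2 and 41.7 CPM with prexasertib, against 148, 129 and 126 CPM with diluent. E2F1 in ML1 with prexasertib was below every diluent sample, and in U937 the treatments overlapped. The E2F1 difference was 2.19 ± 0.20 (adjusted p = 1e-06). Thymidine kinase gene TK1 differed by 1.75 ± 0.17 (adjusted p = 2e-06) and the replication helicase subunit gene GINS1 by 1.75 ± 0.18 (adjusted p = 4.4e-06).

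Most repair genes also fell in ML1. Of 24 homologous recombination and Fanconi genes, 20 had a difference above 0 and 21 fell in ML1, against 12.2% and 23.7% of all genes. FANCG differed by 1.35 ± 0.15 (adjusted p = 9.5e-06), FANCI by 1.4 ± 0.18 (adjusted p = 3.1e-05) and the recombination gene XRCC2 by 1.65 ± 0.22 (adjusted p = 4.1e-05). Of 28 checkpoint and CDK regulators, 15 had a difference above 0, and the genes of the upstream kinases ATR and ATM had none called (0.26 and -0.65). CCND1, the gene of cyclin D1, was the 1 member with a difference below 0 (-1.04), and a further member joined it in DESeq2 and without U937 prexasertib 1, U937 prexasertib 2 or ML1 prexasertib 2. CHEK1, the gene of the drug target CHK1, had 62.5, 85.1 and 63.7 CPM in U937 with prexasertib, against 63.2, 63.3 and 59.2 CPM in U937 with diluent. CHEK1 in ML1 had 18.4, 17.4 and 21.2 CPM with prexasertib, against 41.4, 44.5 and 43.4 CPM with diluent. CHEK1 in ML1 did not overlap between treatments and in U937 it did. CHEK1 had a log2 fold change of 0.19 ± 0.13 in U937 (adjusted p = 0.29) and -1.18 ± 0.13 in ML1 (adjusted p = 2.2e-06), and the responses differed by 1.37 ± 0.18 (adjusted p = 5.2e-05). CDC25B, a phosphatase that activates cyclin-dependent kinases, had 250.5, 204 and 187 CPM in U937 with prexasertib, against 133, 156 and 142 CPM in U937 with diluent. CDC25B in ML1 had 51.4, 65.3 and 67.5 CPM with prexasertib, against 182, 205 and 188 CPM with diluent. CDC25B moved in opposite directions without overlap. CDC25B had a log2 fold change of 0.57 ± 0.13 in U937 (adjusted p = 0.0056) and -1.64 ± 0.14 in ML1 (adjusted p = 9.2e-08), and the responses differed by 2.21 ± 0.19 (adjusted p = 6.6e-07). CDK2 differed by 1.01 ± 0.17 (adjusted p = 0.00048), TIMELESS by 1.38 ± 0.16 (adjusted p = 1.2e-05) and RAD1 by 1.10 ± 0.16 (adjusted p = 0.00011). CDK2 shares 16.8% of its exon bases with an antisense gene.

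Most histone genes rose in both lines. Of 19 members, 16 rose in U937 and 14 in ML1. The median log2 response of the list was 2.37 in U937 and 2.27 in ML1. Differences below 0 were called for 3 of them and above 0 for 2, against 12% and 12.2% of all genes. H1F0, a linker histone of resting cells, differed by -2.32 ± 0.29 (adjusted p = 3.1e-05) and HIST1H1E by -1.76 ± 0.33 (adjusted p = 0.00091). H2AFX and H2AFZ, variant histones, differed by 1.24 ± 0.29 (adjusted p = 0.0058) and 1.23 ± 0.21 (adjusted p = 0.00039). The 2 differences above 0 became 4 without U937 prexasertib 1 or U937 diluent 3. Histone genes of the clusters have near-identical copies between which reads can be split, so their counts are uncertain.

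Opposite responses were read gene by gene for the 8 genes each way whose smaller response was largest, among those with a mean of at least 5 CPM and at least 10 counts in every group. Among those that rose in U937 and fell in ML1, HJURP, PLK1 and TP73 are given above. LINC00426, a long non-coding RNA gene (chromosome 13, 30340270 to 30377145, minus strand), had 16.2, 17.6 and 13.2 CPM in U937 with prexasertib, against 5.46, 3.01 and 4.25 CPM in U937 with diluent. LINC00426 in ML1 had 1.25, 1.25 and 1.87 CPM with prexasertib, against 5.74, 6.13 and 6.25 CPM with diluent. LINC00426 had like diluent levels in the lines and no overlap between treatments in either. LINC00426 had a log2 fold change of 1.88 ± 0.23 in U937 (adjusted p = 4.2e-05) and -2.05 ± 0.24 in ML1 (adjusted p = 3.8e-06), and the responses differed by 3.94 ± 0.33 (adjusted p = 5.8e-07). DEPDC1, a gene expressed in mitotic cells, had 46.7, 46.3 and 27.1 CPM in U937 with prexasertib, against 18.7, 17.1 and 17.8 CPM in U937 with diluent. DEPDC1 in ML1 had 9.05, 9.19 and 8.74 CPM with prexasertib, against 22.5, 28.4 and 30.0 CPM with diluent. DEPDC1 also showed no overlap. DEPDC1 had a log2 fold change of 1.16 ± 0.18 in U937 (adjusted p = 0.00039) and -1.58 ± 0.19 in ML1 (adjusted p = 3.9e-06), and the responses differed by 2.75 ± 0.26 (adjusted p = 1.9e-06). BZRAP1 had 18.9, 22.4 and 10.6 CPM in U937 with prexasertib, against 11.2, 5.04 and 6.32 CPM in U937 with diluent. BZRAP1 in ML1 had 489, 410.2 and 424 CPM with prexasertib, against 1087, 842 and 923 CPM with diluent. BZRAP1 was far higher in ML1 than in U937 in all samples, and its U937 samples overlapped between treatments. BZRAP1 had a log2 fold change of 1.19 ± 0.27 in U937 (adjusted p = 0.0055) and -1.11 ± 0.26 in ML1 (adjusted p = 0.0026), and the responses differed by 2.30 ± 0.38 (adjusted p = 0.00036). BZRAP1 lies on chromosome 17 close to MPO, the gene of the granule enzyme myeloperoxidase, which also rose in U937 and fell in ML1 (difference 1.76 ± 0.30, adjusted p = 5e-04). The MPO U937 value was no longer called without U937 prexasertib 2 or U937 diluent 3 (0.71). GJC1, the gene of connexin 45, had 0.248, 1.16 and 0.328 CPM in U937 with prexasertib, against 0.141, 0.142 and 0.0846 CPM in U937 with diluent. GJC1 in ML1 had 6.35, 6.75 and 7.47 CPM with prexasertib, against 19.5, 31.4 and 32.4 CPM with diluent. GJC1 stayed low in U937. GJC1 had a log2 fold change of 2.18 ± 0.55 in U937 (adjusted p = 0.0092) and -2.02 ± 0.35 in ML1 (adjusted p = 0.00018), and the responses differed by 4.20 ± 0.64 (adjusted p = 0.00017). The GJC1 difference was 3.22 without U937 prexasertib 2. The GJC1 U937 value was no longer called without U937 prexasertib 2 (1.21). SV2A, a synaptic vesicle protein gene, stayed below 2 CPM in all U937 samples and differed by 2.99 ± 0.59 (adjusted p = 0.0015). SV2A in U937 overlapped between treatments, with 0.238 CPM in U937 prexasertib 3 against 0.255 and 0.303 CPM in U937 diluent 1 and 2. The SV2A U937 value was no longer called without U937 prexasertib 2 (1.44).

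**Figure D5:**
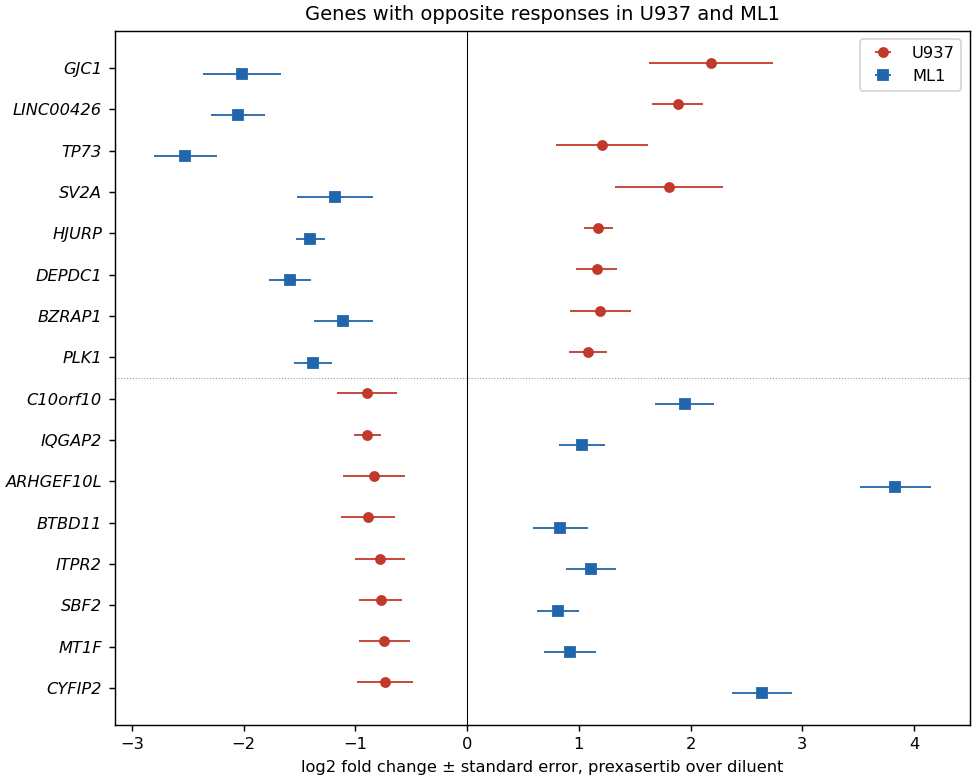
Log2 fold change (prexasertib over diluent) ± standard error in U937 (circles) and ML1 (squares) of the 16 genes named for opposite responses, the 8 that rose in U937 and fell in ML1 above the dotted line and the 8 that fell in U937 and rose in ML1 below it. Falls in U937 lie between -0.89 and -0.73, and the largest rise in ML1 among them is that of ARHGEF10L (3.83).

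The genes that fell in U937 and rose in ML1 had small falls. IQGAP2, a scaffold protein of the cytoskeleton, had 63.2, 46.6 and 61.7 CPM in U937 with prexasertib, against 108, 106 and 104 CPM in U937 with diluent. IQGAP2 in ML1 had 0.709, 0.684 and 0.618 CPM with prexasertib, against 0.336, 0.304 and 0.350 CPM with diluent. IQGAP2 was lowly expressed in ML1, and both lines showed no overlap. IQGAP2 had a log2 fold change of -0.89 ± 0.12 in U937 (adjusted p = 0.00012) and 1.03 ± 0.20 in ML1 (adjusted p = 0.00057), and the responses differed by -1.92 ± 0.24 (adjusted p = 2.2e-05). C10orf10, also known as DEPP1, a gene induced by FOXO factors, had 2.03, 1.55 and 2.06 CPM in U937 with prexasertib, against 3.11, 2.83 and 4.57 CPM in U937 with diluent. C10orf10 in ML1 had 12.4, 22.1 and 13.9 CPM with prexasertib, against 3.10, 4.46 and 5.03 CPM with diluent. C10orf10 fell below all U937 diluent samples and rose above all ML1 diluent samples. C10orf10 had a log2 fold change of -0.89 ± 0.27 in U937 (adjusted p = 0.022) and 1.95 ± 0.26 in ML1 (adjusted p = 1.7e-05), and the responses differed by -2.84 ± 0.38 (adjusted p = 4.6e-05). The C10orf10 U937 value was no longer called without U937 prexasertib 2 or U937 diluent 3 (-0.75 to -0.67). 23.3% of its exon bases are shared with the antisense gene RASSF4. CYFIP2, a subunit of the actin-regulating WAVE complex and a known p53-inducible gene, had 48.7, 23.3 and 38.2 CPM in U937 with prexasertib, against 64.3, 57.9 and 61.0 CPM in U937 with diluent. CYFIP2 in ML1 had 38, 19.3 and 31.7 CPM with prexasertib, against 5.97, 4.46 and 3.87 CPM with diluent. CYFIP2 in ML1 with prexasertib neared the U937 prexasertib samples. CYFIP2 had a log2 fold change of -0.73 ± 0.25 in U937 (adjusted p = 0.039) and 2.64 ± 0.27 in ML1 (adjusted p = 9.5e-07), and the responses differed by -3.37 ± 0.37 (adjusted p = 6.7e-06). The CYFIP2 U937 value was no longer called with the upper-quartile factors, with the stricter filter and without U937 prexasertib 2, U937 diluent 1, U937 diluent 2 or U937 diluent 3 (-0.77 to -0.46). ARHGEF10L, a guanine nucleotide exchange factor gene, had 13.4, 6.0 and 12.4 CPM in U937 with prexasertib, against 23.9, 12.5 and 20.3 CPM in U937 with diluent. ARHGEF10L in ML1 had 24.1, 35.0 and 23.5 CPM with prexasertib, against 2.23, 1.84 and 1.73 CPM with diluent. ARHGEF10L overlapped between treatments in U937. ARHGEF10L had a log2 fold change of -0.83 ± 0.28 in U937 (adjusted p = 0.036) and 3.83 ± 0.32 in ML1 (adjusted p = 9.1e-08), and the responses differed by -4.67 ± 0.42 (adjusted p = 1.1e-06). The ARHGEF10L U937 value was no longer called with the upper-quartile factors and without U937 prexasertib 2, U937 diluent 1 or U937 diluent 3 (-0.80 to -0.52). ITPR2, an IP3 receptor gene of the endoplasmic reticulum, differed by -1.89 ± 0.32 (adjusted p = 0.00038), BTBD11 by -1.72 ± 0.35 (adjusted p = 0.0018), SBF2 by -1.59 ± 0.27 (adjusted p = 0.00046) and the metallothionein gene MT1F by -1.66 ± 0.33 (adjusted p = 0.0016). None of these 4 overlapped between treatments in either line. The ITPR2 U937 value was no longer called without U937 prexasertib 2 (-0.63). The BTBD11 U937 value was no longer called without U937 prexasertib 2 (-0.68). The BTBD11 ML1 value was no longer called without ML1 prexasertib 2 or ML1 diluent 1 (0.58 to 0.68). The SBF2 U937 value was no longer called without U937 prexasertib 2 (-0.62). The MT1F U937 value was no longer called without U937 prexasertib 2 or U937 diluent 1 (-0.61 to -0.53).

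Among the 10 largest differences above 0, several were rises in U937. SLC12A7, the potassium chloride cotransporter KCC4 (chromosome 5, 1050376 to 1112035, minus strand), had 3.82, 13.7 and 4.02 CPM in U937 with prexasertib, against 0.113, 0.0712 and 0.0423 CPM in U937 with diluent. SLC12A7 in ML1 had 25.1, 16.7 and 20.5 CPM with prexasertib, against 44.7, 28.9 and 35.5 CPM with diluent. SLC12A7 in U937 was near the lower end of detection with diluent, U937 prexasertib 2 was its highest U937 sample, and ML1 was higher in every sample. SLC12A7 had a log2 fold change of 6.45 ± 0.61 in U937 (adjusted p = 6.8e-06) and -0.81 ± 0.37 in ML1 (adjusted p = 0.088), and the responses differed by 7.26 ± 0.73 (adjusted p = 5e-06). The SLC12A7 difference was 6.41 without U937 prexasertib 2. The SLC12A7 U937 value was 5.61 without U937 prexasertib 2. The SLC12A7 ML1 value was called without U937 prexasertib 2 (-0.80). MTUS1, a microtubule-associated protein gene, had 8.08, 18.6 and 8.95 CPM in U937 with prexasertib, against 0.679, 0.552 and 0.444 CPM in U937 with diluent. MTUS1 in ML1 had 16.4, 19.8 and 19.6 CPM with prexasertib, against 17.0, 18.3 and 20.1 CPM with diluent. MTUS1 in ML1 overlapped between treatments. MTUS1 had a log2 fold change of 4.38 ± 0.31 in U937 (adjusted p = 4.1e-07) and 0.01 ± 0.25 in ML1 (adjusted p = 0.99), and the responses differed by 4.38 ± 0.40 (adjusted p = 1.1e-06). IL18RAP, a subunit of the interleukin-18 receptor, had 17.3, 31.3 and 16.4 CPM in U937 with prexasertib, against 2.42, 2.90 and 2.69 CPM in U937 with diluent. IL18RAP in ML1 had 0.253, 0.158 and 0.236 CPM with prexasertib, against 0.336, 0.234 and 0.456 CPM with diluent. IL18RAP stayed below 1 CPM in ML1. IL18RAP had a log2 fold change of 3.02 ± 0.27 in U937 (adjusted p = 3.1e-06) and -0.63 ± 0.39 in ML1 (adjusted p = 0.2), and the responses differed by 3.65 ± 0.46 (adjusted p = 3.1e-05). ADAMTS1, the gene of a secreted protease, had 0.9915, 4.80 and 1.19 CPM in U937 with prexasertib, against 0.0566, 0.107 and 0.0423 CPM in U937 with diluent. ADAMTS1 in ML1 had 70.7, 84.8 and 63.8 CPM with prexasertib, against 49.1, 30.5 and 27.6 CPM with diluent. ADAMTS1 in U937 was near the lower end of detection with diluent, so the size of its rise is loose. ADAMTS1 had a log2 fold change of 5.03 ± 0.77 in U937 (adjusted p = 0.00054) and 1.03 ± 0.41 in ML1 (adjusted p = 0.054), and the responses differed by 4.0 ± 0.93 (adjusted p = 0.0068). The ADAMTS1 difference was 2.94 without U937 prexasertib 2. The ADAMTS1 U937 value was 3.97 without U937 prexasertib 2. The ADAMTS1 ML1 value was called without U937 prexasertib 1, U937 prexasertib 2, U937 prexasertib 3 or ML1 diluent 1 (1.04 to 1.33).

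MRVI1, a protein that links cGMP kinase to the IP3 receptor, had 8.37, 9.31 and 8.96 CPM in U937 with prexasertib, against 6.79, 4.86 and 4.31 CPM in U937 with diluent. MRVI1 in ML1 had 0.439, 0.491 and 0.654 CPM with prexasertib, against 6.73, 5.71 and 5.45 CPM with diluent. MRVI1 had like diluent levels in the lines and no overlap between treatments in either. MRVI1 had a log2 fold change of 0.74 ± 0.21 in U937 (adjusted p = 0.016) and -3.5 ± 0.24 in ML1 (adjusted p = 1.4e-08), and the responses differed by 4.23 ± 0.32 (adjusted p = 1.7e-07). The MRVI1 U937 value was no longer called without U937 diluent 2 or U937 diluent 3 (0.60 to 0.67). TERT, the catalytic subunit of telomerase, had 1.28, 1.21 and 1.94 CPM in U937 with prexasertib, against 2.09, 2.90 and 2.54 CPM in U937 with diluent. TERT in ML1 had 0.456, 0.929 and 1.18 CPM with prexasertib, against 15.7, 15.5 and 19.2 CPM with diluent. TERT in the 3 ML1 prexasertib samples was below every other sample. TERT had a log2 fold change of -0.76 ± 0.28 in U937 (adjusted p = 0.052) and -4.30 ± 0.31 in ML1 (adjusted p = 2e-08), and the responses differed by 3.53 ± 0.41 (adjusted p = 1.1e-05). The TERT U937 value was called without U937 prexasertib 3, U937 diluent 1, ML1 prexasertib 1 or ML1 prexasertib 3 (-1.04 to -0.77). TNR encodes a matrix glycoprotein. TNR had a log2 fold change of -1.35 ± 0.59 in U937 (adjusted p = 0.097) and -4.88 ± 0.58 in ML1 (adjusted p = 6.9e-06), and the responses differed by 3.53 ± 0.81 (adjusted p = 0.0051). The TNR difference was 2.71 without U937 prexasertib 1 and 4.42 without ML1 prexasertib 3. The TNR U937 value was called without U937 prexasertib 1 (-2.17). The TNR ML1 value was -5.77 without ML1 prexasertib 3.

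Of 28 genes of the integrated stress response and unfolded protein response, 13 rose in U937 and 19 in ML1, and 11 had a difference below 0. TRIB3, a pseudokinase gene induced by ATF4 and CHOP, had 228, 219 and 246 CPM in U937 with prexasertib, against 163, 174 and 165 CPM in U937 with diluent. TRIB3 in ML1 had 672, 493 and 676 CPM with prexasertib, against 58.5, 53.6 and 51.9 CPM with diluent. TRIB3 was lower in ML1 than in U937 with diluent and higher with prexasertib. The TRIB3 difference was -3.02 ± 0.18 (adjusted p = 2.3e-08). The difference was -2.0 ± 0.19 (adjusted p = 1.6e-06) for the transcription factor gene CEBPB, -1.61 ± 0.17 (adjusted p = 5.1e-06) for the endoplasmic reticulum chaperone gene HSP90B1 and -1.55 ± 0.20 (adjusted p = 3.4e-05) for the disulfide isomerase gene PDIA4. ATF4 and DDIT3 had no called difference (-0.13 and -0.08). PHGDH and SLC7A5, of serine synthesis and amino acid uptake, had differences above 0 (1.26 and 0.98). That count of 2 was 6 without U937 prexasertib 2.

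Of 15 NRF2 targets, genes of the antioxidant response, 3 rose in U937 and 12 in ML1, and 7 had a difference below 0. HMOX1, heme oxygenase, differed by -5.13, the ferritin light chain gene FTL by -1.71 ± 0.22 (adjusted p = 3.5e-05), GCLM, of glutathione synthesis, by -1.64 ± 0.24 (adjusted p = 0.00014) and PRDX1, a peroxiredoxin gene, by -1.19 ± 0.21 (adjusted p = 0.00064). NQO1 and TXNRD1 had no called difference (0.03 and -0.44). FTH1, the ferritin heavy chain gene, differed by -2.03 ± 0.31 (adjusted p = 0.00015), with 62.4% of its exon bases shared with an antisense gene. PRDX1 shares 24.9%.

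Of 14 heat shock genes, 3 had a difference below 0, against 12% of all genes. They were HSPA1A (-3.10 ± 0.59, adjusted p = 0.0018), HSPA1B (-2.62 ± 0.76, adjusted p = 0.031) and the co-chaperone gene BAG3 (-0.99 ± 0.25, adjusted p = 0.0082). HSPA1A and HSPA1B are near-identical copies, so how reads were split between them is uncertain. HSPE1 alone had a difference above 0 (0.72 ± 0.24, adjusted p = 0.035), against 12.2% of all genes. With 14 members, such counts do not set the list apart from all genes. The HSPA1B difference was no longer called with no low-count filter and without U937 prexasertib 1, U937 diluent 2, U937 diluent 3, ML1 prexasertib 2 or ML1 diluent 3 (-2.80 to -2.24). The HSPE1 difference was no longer called without U937 prexasertib 3, U937 diluent 1, U937 diluent 3, ML1 prexasertib 1, ML1 prexasertib 3, ML1 diluent 1, ML1 diluent 2 or ML1 diluent 3 (0.46 to 0.76). Of 22 cholesterol synthesis genes, 13 fell in ML1, against 23.7% of all genes. Only 1, the sterol isomerase gene EBP, had a called difference (0.85 ± 0.28, adjusted p = 0.038), against 24.2% of all genes. The EBP difference was no longer called with no low-count filter and without U937 prexasertib 1, U937 prexasertib 3, U937 diluent 2, U937 diluent 3, ML1 prexasertib 1, ML1 diluent 2 or ML1 diluent 3 (0.61 to 0.85). The count of 1 became 0 with no low-count filter and without U937 prexasertib 3, U937 diluent 2, U937 diluent 3, ML1 prexasertib 1, ML1 diluent 2 or ML1 diluent 3, 3 without ML1 diluent 1 and 4 without U937 prexasertib 2. Of 21 ribosome biogenesis genes, 18 fell in ML1, against 23.7% of all genes. A difference above 0 was called for 5 of the 21, against 12.2% of all genes: BOP1 (0.64), the dyskerin gene DKC1 (0.73 ± 0.18, adjusted p = 0.0065), GNL3 (0.62 ± 0.18, adjusted p = 0.02), NOP56 (0.79 ± 0.23, adjusted p = 0.021) and the fibrillarin gene FBL (0.73 ± 0.23, adjusted p = 0.031). That count became 1 without U937 diluent 1, 2 without U937 prexasertib 3, 3 without U937 diluent 3, ML1 prexasertib 1, ML1 diluent 1, ML1 diluent 2 or ML1 diluent 3, 8 with the upper-quartile factors, 9 without U937 diluent 2 and 11 without U937 prexasertib 1. The GNL3 difference was no longer called without U937 prexasertib 3 or U937 diluent 1 (0.51 to 0.55). The NOP56 difference was no longer called without U937 diluent 1 or ML1 diluent 1 (0.65 to 0.71). The FBL difference was no longer called without U937 prexasertib 3, U937 diluent 1, U937 diluent 3, ML1 prexasertib 1, ML1 diluent 2 or ML1 diluent 3 (0.47 to 0.76).

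Most monocyte markers rose in ML1. Of 19 tested markers, 16 rose in ML1 and 13 had a difference below 0. In U937, 3 rose, which became 5 without U937 prexasertib 3 or ML1 prexasertib 1. The summed level of all 20 markers was 507 to 562 CPM in U937 with prexasertib and 514 to 611 CPM in U937 with diluent, and 4031 to 5574 CPM in ML1 with prexasertib and 720.2 to 956 CPM in ML1 with diluent. LYZ, lysozyme, had 136, 135 and 132 CPM in U937 with prexasertib, against 189, 185 and 158 CPM in U937 with diluent. LYZ in ML1 had 3316, 4401 and 3024 CPM with prexasertib, against 633, 492 and 396 CPM with diluent. LYZ carried most of the ML1 sum, and in U937 all prexasertib samples lay below diluent. The LYZ difference was -3.22 ± 0.25 (adjusted p = 2e-07), and 34% of its exon bases are shared with an antisense gene. ITGAM, the integrin CD11b, had 13.4, 15.1 and 10.6 CPM in U937 with prexasertib, against 13.6, 12 and 9.98 CPM in U937 with diluent. ITGAM in ML1 had 155, 140.5 and 135 CPM with prexasertib, against 32.5, 31.7 and 30.9 CPM with diluent. ITGAM overlapped between treatments in U937 and not in ML1. ITGAM had a log2 fold change of 0.13 ± 0.14 in U937 (adjusted p = 0.51) and 2.18 ± 0.14 in ML1 (adjusted p = 8.7e-09), and the responses differed by -2.05 ± 0.20 (adjusted p = 2.6e-06). CD68 differed by -2.25 ± 0.16 (adjusted p = 1e-07), with 85.8% of its exon bases shared with another annotated gene, and FCN1 by -3.23 ± 0.34 (adjusted p = 5.1e-06). The part of cell state in the other ML1 differences was not tested.

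Differences of genes of myeloid progenitors and granules pointed either way. Of 19 members, 10 fell in ML1 and 8 in U937, and the U937 count became 1 without U937 prexasertib 2 and 5 without U937 prexasertib 1 or U937 diluent 1. The summed level was 2370 to 3364 CPM in U937 with prexasertib and 4061 to 4729 CPM in U937 with diluent, and 5275 to 7731 and 11470 to 13690 CPM in ML1 with prexasertib and diluent. The granule protease genes ELANE, PRTN3, AZU1 and CTSG had no called difference (0.45, 0.62, 0.36 and 0.41). Differences above 0 were called for MPO, the receptor gene FLT3 (1.25 ± 0.26, adjusted p = 0.0021), the repressor gene GFI1 (0.86 ± 0.18, adjusted p = 0.0022) and MS4A3 (0.68), and below 0 for the myeloid master regulator gene SPI1 (-0.97 ± 0.18, adjusted p = 0.00086), CD33, HOXA9 and MEIS1 (-0.47, -1.30 and -0.96). The 4 below 0 became 2 with no low-count filter and without U937 prexasertib 2, U937 diluent 3, ML1 prexasertib 3, ML1 diluent 2 or ML1 diluent 3.

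The lines were already unlike with diluent. Of the 4092 genes with a called difference, 3243 differed between U937 and ML1 with prexasertib and 2929 differed with diluent, against 11232 (66.4%) and 10377 (61.4%) of all genes tested. With prexasertib 35.6% of all genes were higher in U937 than in ML1 and 30.8% were lower, and with diluent 31.8% were higher and 29.6% lower. These comparisons share samples with the difference and are given as a description. CDKN1A stood -3.05 ± 0.24 from ML1 with diluent and -4.49 ± 0.25 with prexasertib (U937 minus ML1, log2). For PLK1 the same values were 0.05 ± 0.17 with diluent and 2.50 ± 0.18 with prexasertib.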

How the data were processed

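RNA-seq libraries of 15 samples were sequenced by the authors, of which 12 were used. The authors deposited counts of reads per gene, not normalized. Reads were aligned with TopHat2 2.0.14 and Bowtie2 2.2.6 to hg38 and counted with featureCounts 1.4.6 from Subread, per the submitters' processing notes. Annotation, strand setting and fragment counting were not given in the sources used here. The library kit does not mark strand.

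Genes were filtered with filterByExpr over the 4 groups and tested with edgeR 4.0.16 in R 4.3.3 (TMM scaling, robust quasi-likelihood F test, 1 mean per group, 8 residual degrees of freedom), with Benjamini-Hochberg adjustment over 16906 genes. The call threshold was an adjusted p of 0.05. Standard errors are the absolute log2 value divided by the square root of the F statistic. They are approximate, above all where a group has counts near 0. CPM values use the TMM-scaled library sizes. Total counts per sample were 49011222 to 87301014, and the median biological coefficient of variation was 0.164. Alternatives were DESeq2 1.42.0, its size factors, upper-quartile factors, other filters, all 15 libraries, replicate blocks, thinned counts, a log2 limit and leaving out each sample. The labels give no batch.

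Named genes were the 10 largest called differences each way and the 8 opposite genes each way (mean of at least 5 CPM, at least 10 counts in every group), up to 4 members of each of 22 lists by p, and TNF, TNFRSF1A, CHEK1, CDK2, CDKN1A and MDM2. Some named genes are not reported here. Other members are named from their lists. The comparison, lists and rules were chosen with earlier results of these data known, and 3 lists, 4 promoters and IFNB1, IFNL1 and TAP1 were added after values were seen. Gene positions and exon overlaps are from GENCODE 29, which held 16144 (95.5%) of the tested genes, and promoters from RefSeq, with 12668 genes matched.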

Additional observations from a re-analysis of the deposited data

Results flagged for a closer look

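The responses to prexasertib differed between U937 and ML1 by the test of the difference itself for 2069 genes above 0 and 2023 genes below 0, and 171 genes rose in U937 and fell in ML1 while 133 fell in U937 and rose in ML1. Each named gene below had a called difference, given as log2 U937 minus ML1. No explanation was weighed.

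Largest differences above 0 were found for SLC12A7 (7.26), MTUS1 (4.38), MRVI1 (4.23), GJC1 (4.20), ADAMTS1 (4.0), LINC00426 (3.94), TP73 (3.73), IL18RAP (3.65), TERT (3.53) and TNR (3.53). Largest differences below 0 were found for EPSTI1 (-10.45), IFI27 (-10.25), GBP1 (-9.30), CYP4F3 (-8.60), IFITM1 (-8.27), PAX5 (-8.12), OAS2 (-8.06), LIF (-7.43), HELZ2 (-7.15) and SLC2A6 (-7.09). Genes that rose in U937 and fell in ML1 also included SV2A (2.99), HJURP (2.58), DEPDC1 (2.75), BZRAP1 (2.30) and PLK1 (2.46). Genes that fell in U937 and rose in ML1 included C10orf10 (-2.84), IQGAP2 (-1.92), ARHGEF10L (-4.67), BTBD11 (-1.72), ITPR2 (-1.89), SBF2 (-1.59), MT1F (-1.66) and CYFIP2 (-3.37). The list of AP-1 and ATF factors gave FOSL1 (-2.53), FOSB (-4.0), JUNB (-2.61) and JUND (-1.46). The list of immediate early genes gave CSRNP1 (-3.03), BTG2 (-2.09), NR4A1 (-2.21) and IER5 (-1.77). The list of MAPK feedback genes gave DUSP5 (-3.77), DUSP2 (-2.82), GADD45A (-3.80) and SPRY4 (-4.52). The list of NF-kB subunits and targets gave ICAM1 (-4.46), TNFAIP3 (-3.64), BIRC3 (-4.48) and NFKB2 (-2.44). The list of cytokines and growth factors gave IL32 (-3.44), CCL5 (-3.93), PDGFA (-4.09) and VEGFA (-1.68). The list of death receptor pathway gave TNFSF10 (-3.35), MLKL (-2.17), TNFRSF10B (-1.98) and FAS (-2.13). The list of BCL2 family gave BCL2A1 (-5.07), BBC3 (-3.02), BCL2 (2.46) and BAX (-1.55). The list of p53 targets gave FDXR (-2.32), RPS27L (-1.66) and MDM2 (-3.38). The list of interferon-stimulated genes gave USP18 (-4.82), MX2 (-2.97) and CMPK2 (-5.16). The list of histone genes gave H1F0 (-2.32), H2AFZ (1.23), HIST1H1E (-1.76) and H2AFX (1.24). The list of E2F and DNA replication gave E2F1 (2.19), TK1 (1.75) and GINS1 (1.75). The list of G2 and mitosis gave CCNA2 (2.14), CDK1 (2.38), BUB1B (2.50) and HMMR (2.48). The list of homologous recombination and Fanconi genes gave FANCG (1.35), FANCI (1.4) and XRCC2 (1.65). The list of checkpoint and CDK regulators gave CDC25B (2.21), TIMELESS (1.38), CHEK1 (1.37) and RAD1 (1.10). The list of integrated stress and unfolded protein response gave TRIB3 (-3.02), CEBPB (-2.0), HSP90B1 (-1.61) and PDIA4 (-1.55). The list of cholesterol synthesis gave EBP (0.85). The list of ribosome biogenesis gave DKC1 (0.73), GNL3 (0.62), NOP56 (0.79) and FBL (0.73). The list of NRF2 targets gave FTL (-1.71), GCLM (-1.64), FTH1 (-2.03) and PRDX1 (-1.19). The list of heat shock genes gave HSPA1A (-3.10), BAG3 (-0.99), HSPA1B (-2.62) and HSPE1 (0.72). The monocyte markers gave CD68 (-2.25), LYZ (-3.22), ITGAM (-2.05) and FCN1 (-3.23). The list of myeloid progenitor and granule genes gave MPO (1.76), SPI1 (-0.97), FLT3 (1.25) and GFI1 (0.86). Further named genes were TNF (-3.04), CDK2 (1.01), CDKN1A (-1.45), IFNB1 (-6.10) and TAP1 (-3.20).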

How the results depend on the processing

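The number of differences moved less than the numbers within U937. Leaving out each of the 12 samples in turn gave 1610 to 2180 differences above 0 and 1689 to 2045 below 0, 1969 to 3352 rises and 483 to 2817 falls in U937, 3692 to 4583 rises and 3406 to 4196 falls in ML1, 96 to 193 genes that rose in U937 and fell in ML1 and 26 to 202 that did the reverse. In these fits 79.2% to 89.5% of the 4092 called differences were called again. DESeq2 called 4704 differences, 4056 of them shared, and gave 235 genes that fell in U937 and rose in ML1. The stricter filter left 1993 rises in U937. With an absolute log2 value of at least 1 there were 1168 differences above 0, 1820 rises and 58 falls in U937, 2618 rises and 1367 falls in ML1, and 37 and 3 opposite genes. The fewer calls under the last 2 follow from their construction, and the cause of the others was not tested. In no pair of groups were all 3 correlations of deviations of same-numbered samples above the limit of 0.1. Between prexasertib and diluent they were 0.33, 0.105 and 0.064 in U937, and 0.166, 0.097 and 0.060 in ML1. The check cannot exclude pairing within a line. A replicate block within line gave 5133 called differences, 3070 falls in U937 and 264 and 289 opposite genes. A replicate block over the 4 groups kept all 8 counts within 1.5 times. No called value of a named gene changed sign under these alternatives. Medians of some lists did. The difference did for histone genes (-0.028 without U937 diluent 1) and the BCL2 family (-0.47 with the stricter filter). The U937 response did for checkpoint and CDK regulators (-0.040 without U937 diluent 1) and guanylate-binding proteins (-0.0055 without U937 diluent 2). Heat shock genes changed sign in the difference (0.093 without ML1 diluent 1), U937 (0.021 without U937 prexasertib 1) and ML1 (0.012 without ML1 prexasertib 1). Markers of non-myeloid cells did so in the difference (-0.15 without ML1 diluent 3), U937 and ML1 (1.44 and 0.45 with no low-count filter). Of the called differences, 351 had under 10 counts in at least 1 group, where the fitted size is loose.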

Other observations

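Antigen presentation genes, a list added after values were seen, mostly rose in ML1. Of 14 MHC class I and antigen processing genes, 13 had a difference below 0, 3 rose in U937 and 13 rose in ML1, and ERAP2, a peptide trimming enzyme gene, had no called difference (0.19). TAP1, a peptide transporter subunit gene, had 46.8, 52.6 and 51.2 CPM in U937 with prexasertib, against 48.2, 53.3 and 45.9 CPM in U937 with diluent. TAP1 in ML1 had 407, 348 and 389.5 CPM with prexasertib, against 37.9, 41.6 and 42.2 CPM with diluent. TAP1 overlapped between treatments in U937 and not in ML1. TAP1 had a log2 fold change of 0.03 ± 0.11 in U937 (adjusted p = 0.84) and 3.23 ± 0.12 in ML1 (adjusted p = 2.8e-11), and the responses differed by -3.20 ± 0.15 (adjusted p = 3.5e-09). HLA-F, B2M and NLRC5, a transactivator of these genes, had differences of -5.61, -1.63 and -1.89. All 5 guanylate-binding protein genes had a difference below 0, and GBP4 and GBP5 also rose in U937 (differences of -1.56 and -6.88).

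Of 11 type I and III interferon genes, 2 passed the filter. IFNB1, interferon beta, had 0.262, 0.860 and 0.372 CPM in U937 with prexasertib, against 0, 0.178 and 0.0423 CPM in U937 with diluent. IFNB1 in ML1 had 20.1, 8.97 and 15.1 CPM with prexasertib, against 0, 0.0702 and 0 CPM with diluent. IFNB1 was at or near 0 with diluent in both lines, so the size of its change is loose. IFNL1, a type III interferon gene, had 0.0583, 0.573 and 0.164 CPM in U937 with prexasertib, against 0, 0 and 0 CPM in U937 with diluent. IFNL1 in ML1 had 6.01, 3.47 and 3.94 CPM with prexasertib, against 0, 0 and 0 CPM with diluent. IFNL1 had 0 counts in all 6 diluent samples, and all prexasertib samples of both lines were above 0. The IFNB1 difference was -6.10 ± 1.43 (adjusted p = 0.0056). The IFNB1 difference was no longer called without U937 diluent 2 (-4.19). The IFNB1 difference was -6.84 with thinned counts, -6.71 without U937 prexasertib 2, -6.82 without U937 diluent 1 and -10.01 without ML1 diluent 2. No difference of IFNL1 was called. With 0 counts in all 6 diluent samples neither fold change is bounded, so the test of their difference could not give a call for IFNL1.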
